A study of Mus musculus with 12 samples.

Results

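Antisense long non-coding RNAs (lncRNAs) assembled from the reads of 2 mouse pain-pathway tissues are described here. They were chosen as every transcript that the deposited table of assembled lncRNA classes as antisense lncRNA. There were 742 of them among 5602 assembled lncRNA transcripts, next to 2847 intergenic (lincRNA) and 2013 intronic ones, and among 65500 transcripts in all 3 deposited tables. Each carries an assembly ID and a locus ID. The files do not pair these IDs with gene names, and positions, opposite-strand genes and sequences of the transcripts are not analysed here, so individual transcripts are given by ID and with no role.

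RNA came from the trigeminal ganglia (TG) and the caudal part of the spinal trigeminal nucleus (nucleus caudalis, Sp5C) of wild-type C57BL/6 mice aged 8 weeks, in a series on chronic inflammatory pain of the temporomandibular joint. The 4 groups were CTG, STG, CSp5C and SSp5C, with 3 libraries each. The labels do not spell out the letters C and S, so they were used as they stand. They also do not say whether libraries came from separate animals, so a p-value here covers the variation among libraries, part or all of which may be technical.

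An antisense lncRNA is transcribed from the DNA strand opposite another gene and can overlap it in part or in whole. Some such transcripts are known to act on the gene they overlap, through its promoter, its chromatin or the stability of its RNA, while for many no function is known. The ganglion holds the cell bodies of the sensory neurons of the face and jaw with their glia, and Sp5C, in the brainstem, is where their fibres for pain and temperature end.

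Most marker lists separated the tissues the way their names say, and one did not. A list of 6 sensory neuron genes summed to 764 to 862 FPKM in TG libraries and to 10.9 to 40.0 FPKM in Sp5C libraries, where FPKM is fragments scaled to transcript length and library size. A list of 4 central inhibitory neuron genes summed to 0.317 to 0.747 FPKM in TG and 260 to 302 FPKM in Sp5C. All TG libraries lay above all Sp5C libraries for 4 of 5 Schwann cell genes and below them for the other 1. They also lay below them for all 3 astrocyte, all 3 oligodendrocyte and all 3 hindbrain genes. The sum of the 3 genes listed for satellite glia, the glia of the ganglion, went the other way. It was 511 to 677 FPKM in TG and 1655 to 2520 FPKM in Sp5C. Of these genes, 2 were lower in all TG libraries than in all Sp5C libraries, and the other 1 was higher. Bone genes, a neighbouring tissue, summed to 103 to 275 FPKM in TG and 5.82 to 15.7 FPKM in Sp5C. Some libraries stood apart. The 5 pituitary genes summed to 2844 FPKM in STG replicate 1, against 2.57 to 51.4 FPKM in the other TG libraries, and the 6 granulocyte and bone marrow genes to 212 FPKM in CTG replicate 1 and 59.5 FPKM in CTG replicate 3, against at most 6.82 FPKM elsewhere. Their part in the results below was not tested beyond leaving out libraries. Absolute depth is unknown from FPKM. The value of 1 fragment, judged from ratios of low values, spanned 1.403-fold over the libraries, which is a rough estimate from few values.

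Most of the antisense transcripts were present at low level. Their mean over the 12 libraries had a median of 0.190 FPKM, with quartiles of 0.0831 and 0.355 FPKM. The medians were 0.120 FPKM for assembled lincRNA, 0.0755 FPKM for assembled intronic lncRNA and 0.436 FPKM for the 500 antisense transcripts of the annotated lncRNA table. Of the 742, 103 (13.9%) averaged at least 0.5 FPKM and 25 (3.37%) at least 1 FPKM, while 217 (29.2%) averaged under 0.1 FPKM. A value above 0 in all 12 libraries was found for 281 (37.9%), against 23.0% of assembled lincRNA and 9.84% of assembled intronic lncRNA. These shares are descriptions with no test, and they move with level and with depth.

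Libraries held similar numbers of these transcripts. Between 487 (SSp5C replicate 1) and 531 (CTG replicate 2) were above 0 in a library. Their FPKM summed to 204.6 ± 6.92 in CTG and 232.6 ± 11.6 in STG, and to 238.8 ± 29.6 in CSp5C and 226.5 ± 16.4 in SSp5C (SD, n = 3 each). The 3 CTG sums, 199, 212 and 203 FPKM, lay below the 3 STG sums, 246, 226 and 225 FPKM, while the sums of CSp5C and SSp5C overlapped. As a share of all assembled FPKM without the largest transcript, the antisense transcripts made up 7.63%, 8.55% and 8.19% in CTG and 8.23%, 7.82% and 9.70% in STG, and these overlap. Without the 5 most abundant transcripts, which took 4.82% to 17.1% of a library's sum, the CTG sums ran from 168 to 185 FPKM and the STG sums from 197 to 215 FPKM.

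**Figure D1:**
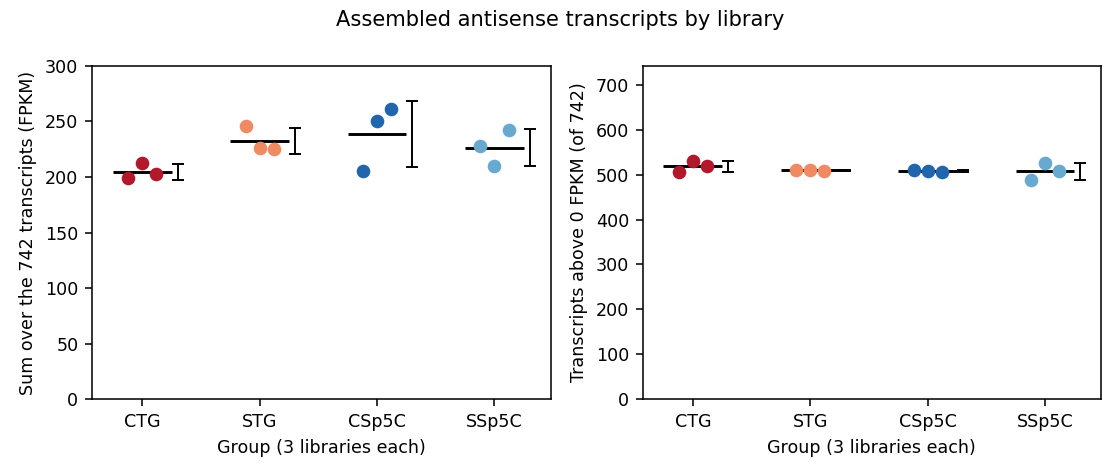
Summed FPKM of the 742 antisense transcripts (left) and number of them above 0 FPKM (right) in each library, by group. Points are libraries, lines are group means and bars 1 SD (n = 3); the CTG sums, 199 to 212 FPKM, lie below the STG sums, 225 to 246 FPKM, whereas their shares of assembled FPKM without the largest transcript, 7.63% to 8.55% in CTG and 7.82% to 9.70% in STG (not plotted), overlap.

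How well a transcript was measured followed its level. Among the 217 transcripts under 0.1 FPKM, 71.5% of the values were 0 and the median coefficient of variation within a group was 173%. It was 44.2% for the 422 transcripts between 0.1 and 0.5 FPKM, 22.7% for the 78 between 0.5 and 1 FPKM, and 21.1% for the 25 above that. A group of 3 libraries always has the value of 173% when 1 library alone is above 0. Groups at 0 in all libraries have no coefficient and were left out. Tests were therefore run on transcripts with a mean of at least 0.5 FPKM over the libraries compared, on the log2(FPKM + 0.5) scale, which understates changes of low transcripts.

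The most abundant antisense transcript was LNC_001584, with a mean of 9.82 FPKM. It stood at 0, 13.7 and 14.7 FPKM in CTG, at 8.85, 7.16 and 9.66 FPKM in STG, while the CSp5C libraries held 0, 13.5 and 12.8 FPKM and the SSp5C libraries 15.2, 8.90 and 13.4 FPKM. The 2 libraries listed at 0, CTG replicate 1 and CSp5C replicate 1, thus stood apart from all others. LNC_001583, of the same locus XLOC_060867, was at 14.2, 2.01 and 1.53 FPKM in CTG and at 0.573, 2.90 and 1.73 FPKM in STG. CSp5C libraries had 4.45, 2.11 and 1.62 FPKM of it, and SSp5C libraries 5.75, 4.18 and 1.90 FPKM. In CTG replicate 1 the locus was therefore assigned to LNC_001583 alone, and in CSp5C replicate 1 to LNC_001583 and another transcript, LNC_001585, at 1.71 FPKM.

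Summed over its 3 transcripts, XLOC_060867 gave 14.2, 16.4 and 16.2 FPKM in CTG and 9.76, 11.6 and 11.4 FPKM in STG. It gave 6.17, 16.7 and 14.4 FPKM in CSp5C and 24.5, 13.5 and 15.3 FPKM in SSp5C. On the locus sum CTG replicate 1 was no longer apart from the other CTG libraries, whereas CSp5C replicate 1 remained the lowest of the 12. Transcripts of one locus can share reads, so the split of a locus between them is less certain than its sum.

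**Figure D2:**
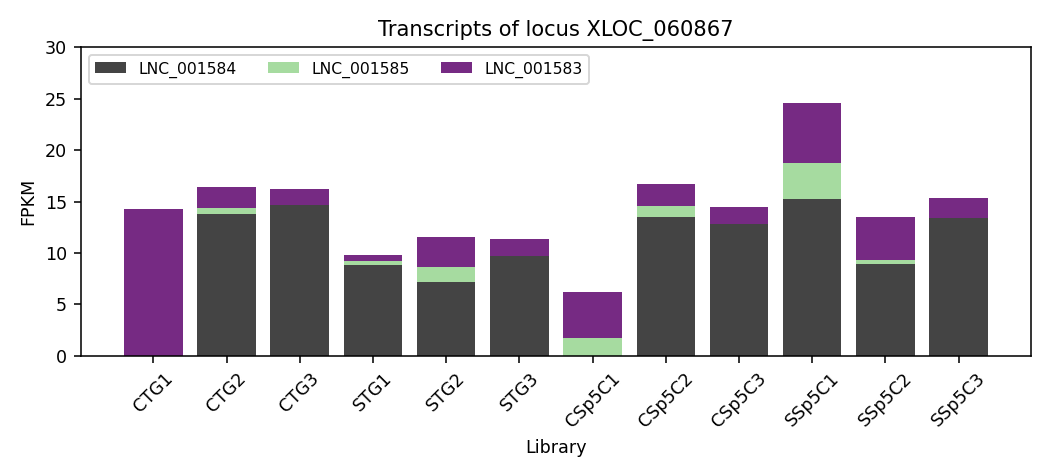
FPKM of the 3 antisense transcripts of locus XLOC_060867 in each of the 12 libraries, stacked so that the bar height is the locus sum. LNC_001584 is at 0 in CTG1 and CSp5C1, where LNC_001583 stands at 14.2 and 4.45 FPKM.

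Sharing of a locus was the exception. The 742 transcripts fell into 653 loci, of which 565 had 1 transcript and 88 had 2 or more, with at most 5. The assembly placed antisense transcripts alone in 627 loci, with a lincRNA in 13 and with an intronic lncRNA in 13. In the 23 antisense-only loci with several transcripts and a leading transcript of at least 0.5 FPKM, the median coefficient of variation within a group was 21.9% for the locus sum and 40.3% for the leading transcript. The sum was the less variable in 58 of 92 group values.

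The other abundant transcripts were LNC_003360 (mean 4.50 FPKM), LNC_003361 (3.91 FPKM) and LNC_002330 (3.85 FPKM). LNC_003361 ran from 0 to 11.9 FPKM in TG and from 0 to 4.46 FPKM in Sp5C, again at 0 in CTG replicate 1 and CSp5C replicate 1. Its locus partner LNC_003360 ran from 2.21 to 6.33 FPKM in TG and from 1.60 to 6.37 FPKM in Sp5C, lowest in the same 2 libraries. A total of 4 antisense transcripts were at 0 in exactly this pair of libraries, and the highest number for any other pair of the 66 was also 4. None of the 5 most abundant transcripts passed the test between tissues, with adjusted p from 0.172 to 0.905 (limma).

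Tissue separated the libraries over these transcripts. Across the 742 transcripts, which share library and length scaling, log2 values correlated at r = 0.612 to 0.804 between libraries of one group and at 0.632 to 0.810 between libraries of one tissue with different letters. Between tissues r was 0.368 to 0.520. CTG replicate 1 and CSp5C replicate 1 set the low end within groups, and r between these 2 libraries was 0.509. Without them the ranges were 0.715 to 0.804, 0.675 to 0.810 and 0.410 to 0.520, in the same order. The ranges for one group and for different letters overlapped almost entirely, and neither overlapped the range between tissues. Transcripts are not independent replicates, so these values are a description.

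The contrast of TG with Sp5C asks which antisense transcripts differ between the ganglion and its central target nucleus. Of 103 transcripts tested, 42 passed an adjusted p of 0.05 (limma, 6 against 6 libraries, adjusted over all assembled transcripts tested), 14 higher and 28 lower in TG. That is 40.8%, beside a background of 35.7% over all 465 assembled transcripts tested (14.4% higher and 21.3% lower). The share was 33.6% for lincRNA and 37.7% for intronic lncRNA, so the antisense share lay near the background. Of the 42, 11 had means of at least 0.5 FPKM in both tissues, 12 in TG alone and 19 in Sp5C alone. Those that reached it in 1 tissue alone passed the filter through the tissue where they were high. The median difference was -0.10 for antisense transcripts and -0.04 for all assembled transcripts (TG minus Sp5C, log2 scale). For the antisense transcripts it ran from -0.15 (without CTG replicate 3) to -0.0059 (without CSp5C replicate 2) with 1 library left out, and leaving out SSp5C replicate 3 gave -0.015, CSp5C replicate 3 -0.042 and SSp5C replicate 1 -0.064. It was -0.020 under quantile normalization, with 50 above 0 and 53 below. Scaling by the median ratio of protein-coding genes gave -0.11, with 44 above and 59 below. In bulk tissue, fewer cells of a type and less RNA per cell cannot be told apart.

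The 14 transcripts higher in TG came from 14 loci and differed by 0.31 to 1.77, with a median of 0.94. The 28 lower in TG came from 25 loci and differed by -2.35 to -0.26, with a median of -0.77. A difference of at least 1 was reached by 6 of the higher and 9 of the lower. Not all of these were without overlap between the tissues, in either direction. Several of the lower ones shared 1 locus, XLOC_145673. No locus had called transcripts in both directions. Without STG replicate 1, CTG replicate 1 and CSp5C replicate 1, 9 were higher and 27 lower in TG. With no filter on level the counts were 93 and 97, and at a mean of at least 1 FPKM 2 and 9. Shares over all assembled transcripts under these settings are not given here, so the counts only describe the antisense transcripts. The 6 libraries of one tissue lay entirely above those of the other for 8 transcripts higher and 13 lower in TG, beside backgrounds of 9.25% and 12.3% (21.5% either way).

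LNC_004080 (XLOC_154906) had the largest difference among transcripts higher in TG. It stood at 1.02, 1.20 and 1.001 FPKM in CTG and 1.37, 1.42 and 1.41 FPKM in STG, against 0.00374, 0.00758 and 0 FPKM in CSp5C and 0.00380, 0.0201 and 0 FPKM in SSp5C. All TG libraries were above all Sp5C libraries, and Sp5C values were near or at 0. The transcript thus passed the filter through TG, the tissue where it was high. The means were 1.24 ± 0.192 FPKM in TG and 0.00587 ± 0.00753 FPKM in Sp5C (SD, n = 6 each), a difference of 1.77 (SE 0.0912, limma adjusted p = 4.69e-07).

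LNC_004846 (XLOC_182756) was similar. It stood at 0.861, 0.790 and 1.20 FPKM in CTG and 1.25, 1.14 and 1.32 FPKM in STG, against 0.0253, 0.00851 and 0.0319 FPKM in CSp5C and 0.0338, 0.00823 and 0.00866 FPKM in SSp5C. No Sp5C library came near any TG library. This transcript too passed the filter through TG, where it was high. The difference was 1.61 (SE 0.129, limma adjusted p = 5.21e-06). The other 6 of the 8 transcripts higher in TG without overlap had means of 0.822 to 1.81 FPKM in TG and 0.252 to 0.587 FPKM in Sp5C.

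Among transcripts lower in TG, LNC_003059 (XLOC_115550) had the largest difference. It stood at 0.241, 0.188 and 0 FPKM in CTG and 0, 0.120 and 0 FPKM in STG, against 2.99, 3.66 and 2.04 FPKM in CSp5C and 1.25, 2.59 and 2.94 FPKM in SSp5C. TG libraries were all low, 3 of them at 0, and did not overlap Sp5C libraries. The transcript passed the filter through Sp5C, where it was high. The difference was -2.35 (SE 0.197, limma adjusted p = 7.37e-06).

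LNC_004601 (XLOC_174154) was present in both tissues. It stood at 0.620, 0.606 and 0.747 FPKM in CTG and 0.597, 0.610 and 0.967 FPKM in STG, against 3.98, 5.38 and 3.97 FPKM in CSp5C and 5.32, 3.87 and 5.16 FPKM in SSp5C. Values were uniformly lower in TG. The difference was -2.10 (SE 0.130, limma adjusted p = 1.25e-06). The other 6 of the 8 named as lowest had means of 0.284 to 1.15 FPKM in TG and 0.764 to 2.53 FPKM in Sp5C.

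**Figure D3:**
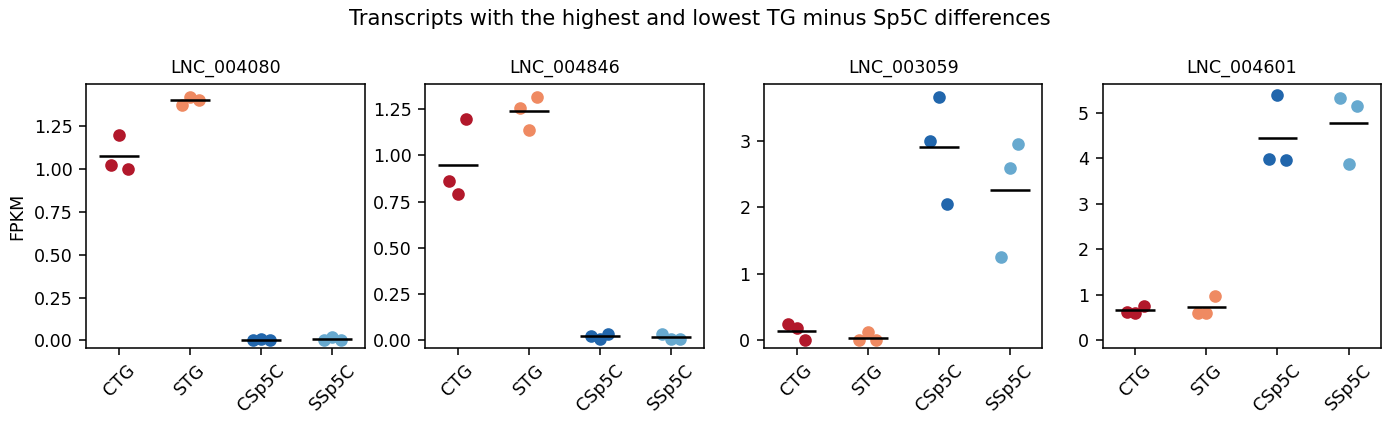
FPKM of LNC_004080, LNC_004846, LNC_003059 and LNC_004601 in each library, by group; points are libraries and lines group means. The first pair averages 1.24 and 1.09 FPKM in TG and is near 0 in Sp5C, and the second pair averages 0.0915 and 0.691 FPKM in TG and 2.58 and 4.61 FPKM in Sp5C.

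Transcripts that reached 0.5 FPKM in both tissues mostly had similar means in them. Of the 51 tested transcripts with means of at least 0.5 FPKM in both tissues, 45 had tissue means within 2-fold and 11 were called. Of the 19 that reached 0.5 FPKM in TG alone, 12 were called, and of the 33 that reached it in Sp5C alone, 19 were. Members of the last sets entered through the tissue where they were high, so their counts are descriptions. No share over all assembled transcripts stands beside them. A further 639 transcripts were not tested, and 67 of these reached 0.5 FPKM in one tissue.

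**Figure D4:**
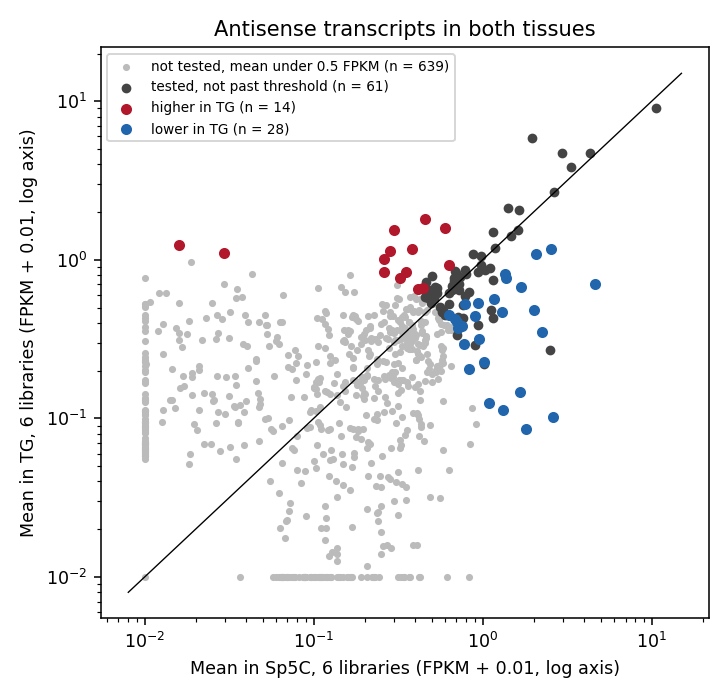
Mean FPKM of each of the 742 antisense transcripts in TG (vertical) and Sp5C (horizontal), 6 libraries each, with 0.01 FPKM added and log axes; the line marks equal means. Of 103 tested, 14 were called higher and 28 lower in TG, and grey points were not tested.

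Some transcripts were listed at 0 throughout one tissue. A total of 11 transcripts of 10 loci were above 0 in all 6 TG libraries and at 0 in all 6 Sp5C libraries, with TG means of 0.192 to 0.755 FPKM. The reverse held for 8 transcripts of 7 loci, with Sp5C means of 0.156 to 0.604 FPKM. The corresponding shares were 1.48% and 1.08% of antisense transcripts, against 2.46% and 0.667% of assembled lincRNA, 0.447% and 0.149% of assembled intronic lncRNA, and 1.61% and 0.536% of all assembled transcripts. A transcript can be listed at 0 through a failed estimate or through too little depth.

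The highest of these in each tissue, picked after their values were seen, were LNC_003382 and LNC_001989. LNC_003382 stood at 0.1005, 0.659 and 0.588 FPKM in CTG and 0.764, 1.07 and 1.35 FPKM in STG, and at 0 in all Sp5C libraries. LNC_001989 was at 0 in all TG libraries, against 0.378, 0.218 and 0.637 FPKM in CSp5C and 0.482, 0.702 and 1.21 FPKM in SSp5C. Each shared its locus with a second transcript at 0 in the same tissue, LNC_003383 and LNC_001990.

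The annotated lncRNA table, fitted separately, also holds antisense transcripts. There 110 of 227 tested antisense transcripts passed (48.5%, 39 higher and 71 lower in TG), beside 53.7% of all 1611 annotated lncRNA transcripts tested. By direction, 17.2% of the annotated antisense transcripts were higher and 31.3% lower in TG, beside 28.2% and 25.5% of all annotated lncRNA. The tables differ in level, so their shares were not tested against each other.

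The contrast of CTG with STG asks what differs with the letter in the ganglion. None of 102 antisense transcripts passed the adjusted threshold (limma, 3 against 3 libraries; adjusted p 0.265 to 0.998), beside a background of 0% of 498 assembled transcripts. At an unadjusted p under 0.05 there were 11, all lower in CTG, beside 15.1% of all assembled transcripts in either direction; with 1 library left out there were 4 (without STG replicate 2) to 12 in either direction. The groups did not overlap for 1 transcript higher and 18 lower in CTG, beside backgrounds of 2.01% and 23.9% (25.9% either way). The median difference was -0.12 (CTG minus STG) with 76 below 0 and 26 above, and -0.17 over all assembled transcripts. Under quantile normalization this lean turned round, with 40 below 0, 62 above and a median of 0.06. That step gives all libraries compared the same distribution over the assembled transcripts tested, so it removes a lean that they share. It cannot tell whether a shared lean is real. Scaled instead by the median ratio of protein-coding genes, 75 were below 0 and 27 above, with a median of -0.11.

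The smallest p values among transcripts lower in CTG were those of LNC_000999 and LNC_001058, neither of which passed. LNC_000999 stood at 0.559, 0.638 and 0.600 FPKM in CTG and 0.947, 0.793 and 0.842 FPKM in STG, without overlap. Its difference was -0.31 (limma adjusted p = 0.265). LNC_001058 stood at 0.782, 0.424 and 1.32 FPKM in CTG and 1.77, 2.03 and 2.15 FPKM in STG, also without overlap, with a difference of -0.94 (limma adjusted p = 0.265). Another transcript of its locus XLOC_037894, LNC_001059, went the other way. It averaged 0.739 ± 0.643 FPKM in CTG and 0.293 ± 0.392 FPKM in STG (SD, n = 3 each), with overlap. Its difference was 0.57 (limma adjusted p = 0.710).

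In the other direction, LNC_001480 and LNC_002475 had the smallest p values without passing. LNC_001480 stood at 0.921, 0.688 and 1.83 FPKM in CTG and 0.931, 0.0284 and 0.0496 FPKM in STG. STG replicate 1 lay within the CTG values and the other 2 STG libraries far below them. The difference was 1.08 (limma adjusted p = 0.367). LNC_002475 stood at 0.859, 1.24 and 1.09 FPKM in CTG and 0.567, 0.109 and 0.937 FPKM in STG, with overlap and a difference of 0.67 (limma adjusted p = 0.410; 0.33 without STG replicate 2).

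The contrast of CSp5C with SSp5C asks the same in the brainstem nucleus. None of 119 antisense transcripts passed the adjusted threshold (limma, 3 against 3 libraries; adjusted p 0.755 to 0.998), beside a background of 0% of 499. At an unadjusted p under 0.05 there were 7 higher and 2 lower in CSp5C, beside 5.01% of all assembled transcripts; with 1 library left out there were 3 (without CSp5C replicate 3) to 9 in all. The groups did not overlap for 11 transcripts higher and 5 lower, beside backgrounds of 10% and 3.21% (13.2% either way). The median difference was 0.05 (CSp5C minus SSp5C), with 70 above 0 and 49 below, and 0.10 over all assembled transcripts. With 1 library left out it ran from 0.024 (without SSp5C replicate 2; 63 above, 57 below) to 0.096 (without SSp5C replicate 3; 77 above, 39 below). Quantile normalization, with the same limit, gave 58 above, 61 below and a median of -0.01. Median-ratio scaling gave 68 above, 51 below and a median of 0.045.

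LNC_004291 and LNC_004292, of the same locus XLOC_161349, were both among the smallest p values and lay in opposite directions. LNC_004291 stood at 1.01, 0.681 and 0.709 FPKM in CSp5C and 0.369, 0.406 and 0.370 FPKM in SSp5C, without overlap, with a difference of 0.55 (limma adjusted p = 0.755). LNC_004292 stood at 0.237, 0.695 and 0.148 FPKM in CSp5C and 0.803, 0.646 and 0.950 FPKM in SSp5C, with a difference of -0.64 (limma adjusted p = 0.770). The sum of the locus was 1.24, 1.38 and 0.857 FPKM in CSp5C and 1.17, 1.05 and 1.32 FPKM in SSp5C, and these overlap. The locus sum thus did not show the separation that LNC_004291 had.

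LNC_005309 stood at 0.870, 1.22 and 0.815 FPKM in CSp5C and 0.204, 0.476 and 0.515 FPKM in SSp5C, without overlap (difference 0.72, limma adjusted p = 0.755). LNC_002209 stood at 0.457, 0.447 and 0.462 FPKM in CSp5C and 0.677, 0.608 and 0.692 FPKM in SSp5C, also without overlap (difference -0.28, limma adjusted p = 0.755). Neither passed. LNC_001480, given above for TG, stood in Sp5C at 0.678, 2.83 and 2.40 FPKM in CSp5C and 0.00297, 0 and 0.945 FPKM in SSp5C, with a difference of 1.66 (limma adjusted p = 0.755). In each tissue 1 S library lay within the range of the C libraries.

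**Figure D5:**
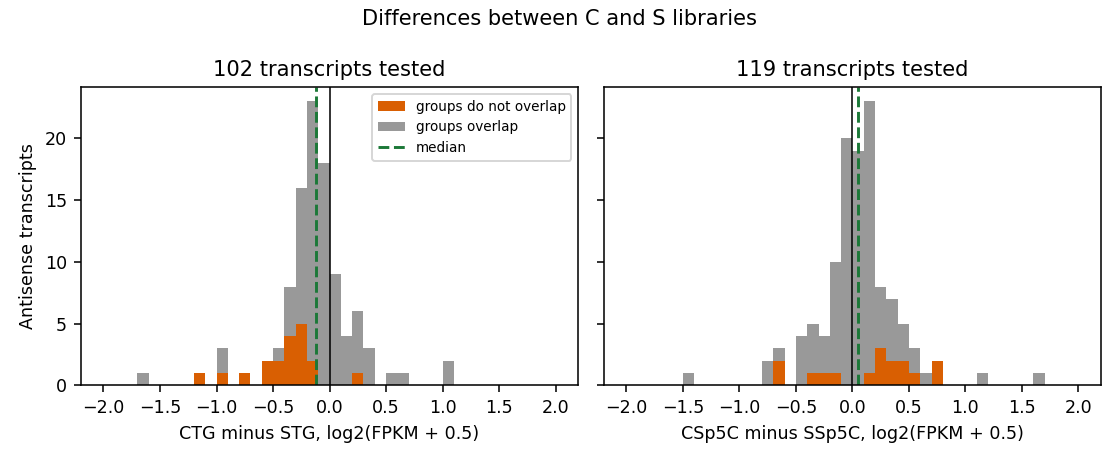
Numbers of antisense transcripts by log2 difference, CTG minus STG (left, 102 tested) and CSp5C minus SSp5C (right, 119 tested), in bins of log2(FPKM + 0.5). Dashed lines mark medians of -0.12 and 0.05, orange bars hold transcripts whose 3 libraries per group do not overlap, and none passed the adjusted threshold.

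The effects of the letter were then compared between tissues. In the test of the difference of effects (CTG minus STG, less CSp5C minus SSp5C), none of 103 passed the adjusted threshold (limma, 12 libraries), beside a background of 0% of 465. There were 8 at an unadjusted p under 0.05, all negative, beside 16.1% of all assembled transcripts. The number at an unadjusted p under 0.05 ran from 3 (without SSp5C replicate 1) to 14 (without CSp5C replicate 1) with 1 library left out. The median was -0.20, with 74 below 0 and 29 above, and -0.27 over all assembled transcripts. Under quantile normalization, with the same limit, this lean too turned round, with 46 below 0, 57 above and a median of 0.071. Median-ratio scaling gave 72 below, 31 above and a median of -0.19.

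LNC_004586 had the smallest p of this test among negative differences. It stood at 0.745, 0.769 and 0.632 FPKM in CTG and 1.11, 0.955 and 0.898 FPKM in STG, and at 1.03, 1.13 and 1.20 FPKM in CSp5C and 0.960, 0.839 and 0.973 FPKM in SSp5C. The groups were apart in both tissues, in opposite directions. The difference of effects was -0.48 (limma adjusted p = 0.159). Over 21 other settings it ran from -0.67 to -0.16 and passed in none. LNC_001058 followed, with -0.97 (limma adjusted p = 0.194). In Sp5C its groups overlapped, at 1.48 ± 0.146 FPKM in CSp5C and 1.45 ± 0.211 FPKM in SSp5C (SD, n = 3 each). In TG another transcript of its locus, LNC_001059, went the other way, as given above. Among positive differences LNC_001583 had 1.52 (limma adjusted p = 0.530; 0.62 without CTG replicate 1) and LNC_002070 had 0.49 (limma adjusted p = 0.552; 0.13 without STG replicate 1).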

How the data were processed

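Per the labels' protocols, Trizol was used for extraction, and 3 µg of RNA per library was depleted of ribosomal RNA, and strand-specific libraries were made. The submitters' processing notes name HISAT2, StringTie 1.3.1 and Cuffdiff 2.1.1; for build and annotation, "not given in the sources used here" applies. Per transcript and library, the authors deposited FPKM, used unrounded. FPKM are not counts, so no count test was run, depth is unknown and no counting interval is given. Among assembled transcripts, 1 lincRNA took 97.3% to 98.5% of the FPKM. It ran from 155537 to 174082 FPKM in CTG and from 106263 to 152952 FPKM in STG. In Sp5C it ran from 124939 (SSp5C replicate 3) to 211476 FPKM (SSp5C replicate 1). Its bearing on the other values was not tested.

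Tests on log2(FPKM + 0.5) used limma 3.58.1 (R 4.3.3; mean-dependent prior, robust moderation, two-sided), over all assembled transcripts with a mean of at least 0.5 FPKM, with Benjamini-Hochberg adjustment and a threshold of 0.05. C against S used the 6 libraries of a tissue; TG against Sp5C and the difference of effects used all 12. Steps were tested on simulated data. Named transcripts were the 5 of highest mean, the 8 highest and 8 lowest tissue differences among called transcripts without overlap, the 4 smallest p per direction for C against S, and 2 for the difference of effects; of these the first 2 per direction are given by ID. Members and lists were chosen with earlier results of these data known. Marker lists of cell types and neighbouring tissues were summed per library. Positions, opposite-strand genes and pathway lists of such genes were planned and are not analysed here.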

Additional observations from a re-analysis of the deposited data

Results flagged for a closer look

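Of 44 sets of 6 libraries of one tissue examined, 4 held a library that stood apart by Dixon's test. Its gap to its nearest neighbour, divided by the range of the 6 values, exceeded the critical value of 0.625. Chance gives about 1 in 20. The median FPKM of the antisense transcripts was 0.125 in SSp5C replicate 1, against 0.161 to 0.182 in the other Sp5C libraries. LNC_002330 stood at 0.242 FPKM in CSp5C replicate 2, against 3.26 to 3.83 FPKM in the other Sp5C libraries. Another transcript of its locus XLOC_087720, LNC_002329, averaged 1.65 ± 2.86 FPKM in CSp5C and 0 in SSp5C (SD, n = 3 each). The low value of LNC_002330 may thus not hold for its locus. LNC_001583 stood at 14.2 FPKM in CTG replicate 1, against 0.573 to 2.90 FPKM in the other TG libraries. Its difference of effects was 0.62 without this library and 1.52 with it. LNC_002070 stood at 0.0772 FPKM in STG replicate 1, the library with the pituitary genes, against 0.658 to 0.802 FPKM in the other TG libraries. Its difference of effects was 0.13 without this library and 0.49 with it. Causes were not tested.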

How the results depend on the processing

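The counts of 14 higher and 28 lower in TG became 93 and 97 with no filter (741 tested, 34 of the 42 calls shared), and 2 and 9 at a mean of at least 1 FPKM (25 tested); fewer or more transcripts were tested by construction. Without STG replicate 1, CTG replicate 1 and CSp5C replicate 1 together, chosen after seeing the data, 9 were higher and 27 lower, with 33 calls shared. Leaving out 1 library at a time gave 11 to 15 higher and 21 to 28 lower. With the replicate block, 12 were higher and 30 lower, and 39 calls were shared. Shares over all assembled transcripts are not given for these settings. Whether the shifts are particular to antisense transcripts is therefore not shown. The labels do not say that same-numbered libraries share an animal, so the numbers were not taken as pairs. Deviations of same-numbered libraries correlated at r = 0.228 to 0.383 between CTG and CSp5C and at -0.197 to -0.0227 between STG and SSp5C, over 13081 genes. C against S in each tissue and the difference of effects gave 0 calls in every setting run, including the block and each library left out. LNC_001584, at -0.21 between tissues, was 0.15 under quantile normalization. Leaving out 1 library at a time it ran from -1.01 to 0.60, and was above 0 without CTG replicate 1 (0.60), CSp5C replicate 2 (0.19) or CSp5C replicate 3 (0.18). LNC_003360, at 0.12, ran from -0.069 (without CSp5C replicate 1) to 0.34 (without CTG replicate 1). Neither passed, and the cause was not tested. Settings foreseen for opposite-strand genes were not run, because the transcripts could not be located.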
